A study of Mus musculus with 30 samples.

Results

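Interferon sensing and signalling was followed through 9 mouse genes: the RNA sensors Ddx58, Ifih1 and Dhx58, the adaptor Mavs, the transcription factors Irf3 and Irf7, the ISGF3 subunits Irf9 and Stat2, and the receptor chain Ifnar1. The 9 rows were taken by gene symbol from a count table of 54532 genes. The genes were chosen by their place in the pathway at a time when the genotype and day differences of these libraries were already known, so those differences are given as a description. An adjusted p here weighs a difference against its standard error, which rests on the spread between libraries. Nothing is read from how many of the 9 genes passed.

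Cells sense foreign RNA in the cytosol with helicases of the RIG-I family, which signal through a shared adaptor on the mitochondrial outer membrane to kinases that activate IRF3 and IRF7. These factors switch on type I interferon genes. Secreted interferon binds its receptor, and the receptor's JAK kinases activate STAT2, which joins IRF9 in ISGF3, the complex that binds the interferon-stimulated response element (ISRE) of its target genes. Several sensors and factors of the pathway are themselves targets of ISGF3, whereas others are made at a steady level in most cells.

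The cells were murine erythroleukemia (MEL) cells of the DS19 clone, a mouse line that makes hemoglobin when grown in dimethyl sulfoxide (DMSO). WT cells were compared with Abcb10-null cells, in which the gene of the mitochondrial transporter Abcb10 was cut by CRISPR/Cas9. The sequenced Abcb10-null cells were 1 clone, grown from a single GFP-sorted cell after lentiviral delivery of Cas9, so genotype cannot be told apart from that clone. The study also made control cells with an mCherry construct. A figure legend of the study that includes an RNA-seq panel opens with transduction of WT cells by the control or the targeting construct. For the sequenced WT cells themselves, the sources used here do not state separately whether they were transduced. Both genotypes were sampled at day 0 without DMSO and on days 2 and 5 of culture with DMSO at 1.5%, with 5 libraries labelled as biological replicates in each of the 6 groups and 30 in all. Both genotypes were kept in DMEM with fetal bovine serum.

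Library totals ran from 9906783 to 20157768 counts, and the count of a single one of the 9 genes in a library ran from 18 to 1932. The targeted gene was lower in all Abcb10-null libraries than in any WT library of the same day, with means of 74.3 against 118.8 CPM at day 0 and 211.9 against 1223 CPM at day 5. Levels are in CPM, a count relative to the normalized size of its library. Of 10 erythroid markers 9 were in the table, and all 9 were detected in both genotypes at each day. Library 4 of Abcb10-null day 5 stood apart, with 36511 genes detected against 17472 to 29986 in the other 29 libraries. Day 5 calls of the lists and single genes below that end without it, and values that turn in direction or move by over 1.5 times, are given beside the result.

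The promoters were searched for the core of the ISRE, GAAANNGAAA or its reverse complement TTTCNNTTTC, because ISGF3 binds this element. RefSeq promoters on GRCm38.p6 (a window around each start site, mostly upstream of it) were matched for 8 of the 9 genes (Dhx58 was not matched), and 3 of the 8 held the motif, against 3.99% of 27025 genes with a promoter. The 24 bases around each match are shown 5′ to 3′ on the strand of the gene, with the motif in capitals, and beside them 1 match from the interferon-stimulated gene Isg15, whose promoter held 3 overlapping ones.
Ddx58, chr4:40239807-40239830, minus strand: gaggcagTTTCGATTTCctatggc
Ifih1, chr2:62646207-62646230, minus strand: gagaatcGAAACAGAAAccgatct
Stat2, chr10:128270269-128270292, plus strand: accctggTTTCAGTTTCctttccc
Isg15, chr4:156200874-156200897, minus strand: ggaaaagGAAACCGAAAcagaaaa
In Ddx58 the motif lay at bases 3 to 12 after the start site and in Ifih1 at bases 33 to 42, both inside the transcript, and in Stat2 it began 222 bases before the start site. No match was found in the windows of Mavs, Irf3, Irf7, Irf9 (2 promoters) and Ifnar1. Of 16 interferon-stimulated targets with a matched promoter, 6 held the motif. A match to these letters is a description of the window, not a measured binding site.

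At day 0, before any DMSO, 6 of the 9 genes were higher in Abcb10-null than in WT cells (edgeR, adjusted p under 0.05 over all genes), none was lower and 3 did not pass. At an unadjusted p under 0.05, and with DESeq2 at the adjusted threshold, 1 was lower (Mavs). Across the 12912 genes tested at day 0, 19.7% were called higher and 16.2% lower. At day 2, 4 of the 9 were higher and 1 was lower, where 14.9% of all genes tested were higher and 16.9% lower. At day 5, 1 was higher and 1 lower, where 19.8% of all genes were higher and 17.8% lower. These shares of all genes depend on the setting: with all 30 libraries in 1 fit they were 7.14% higher and 3.64% lower at day 0, and without the filter on low counts, which adds genes with few reads, 9.37% and 7.84% at day 0, 6.11% and 8.15% at day 2 and 3.95% and 4.75% at day 5. At day 2 the share of genes called higher was 8.72% without Abcb10-null library 1, 8.87% without Abcb10-null library 4 and 9.93% without WT library 2, and the share called lower was 10.7% without WT library 2 and 11% without WT library 1. The median log2 fold change of the 9 genes went from 1.69 at day 0 through 0.30 at day 2 to 0.10 at day 5, and the median of all genes tested lay within 0.0164 of 0 at each day. Leaving out 1 library at a time gave 2 to 4 genes called at day 2 in place of 5: 2 without WT library 1 or Abcb10-null library 3, and 3 without WT library 3, 4 or 5 or Abcb10-null library 2 or 4. In bulk RNA, fewer cells making a transcript and less of it per cell cannot be told apart.

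**Figure D1:**
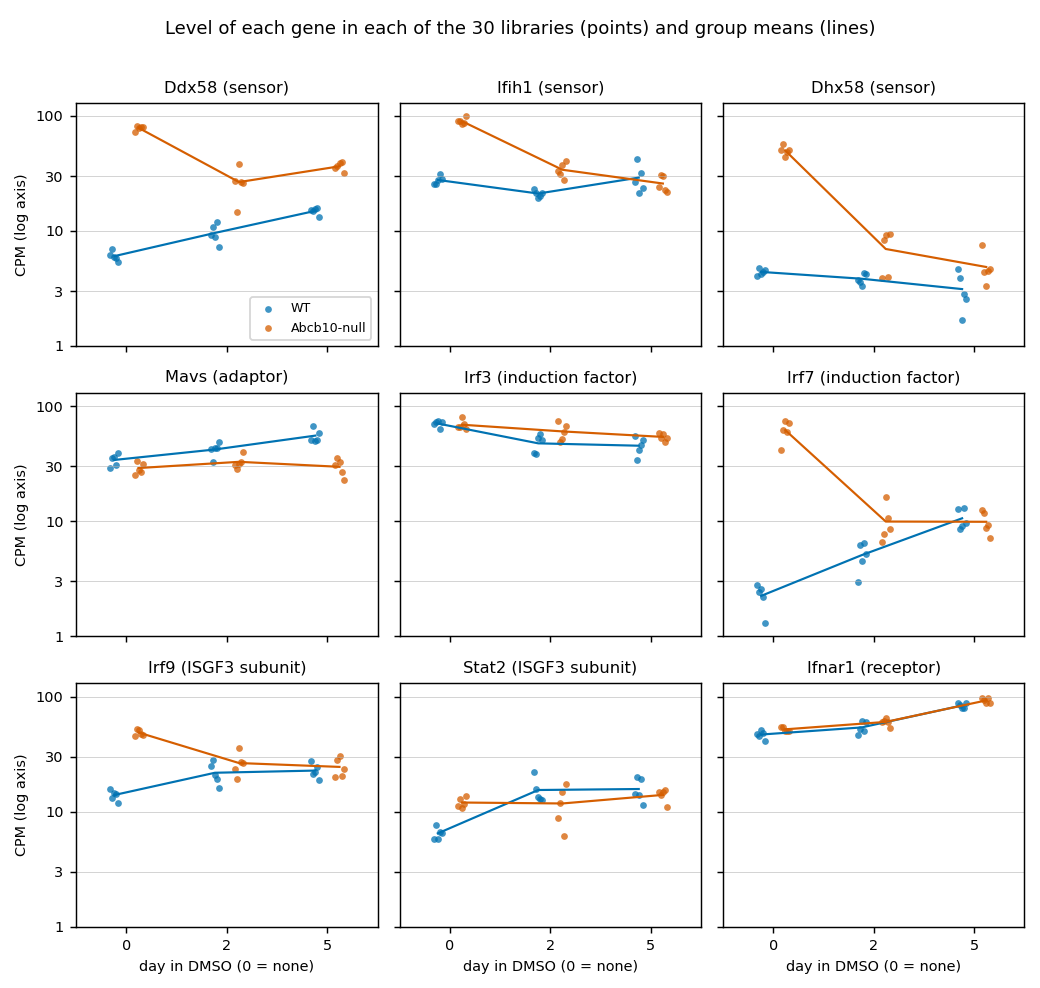
Level of each of the 9 genes in CPM on a log axis, by day in DMSO. Points are the 30 libraries, colored by genotype (WT blue, Abcb10-null orange), and lines join the group means. At day 0 the Abcb10-null libraries of Ddx58, Dhx58 and Irf7 lie between 41.6 and 82.0 CPM and the WT libraries between 1.31 and 6.94 CPM, and at day 5 the genotypes overlap for all genes but Ddx58 and Mavs.

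Ddx58 (ENSMUSG00000040296, chromosome 4, 40203773 to 40239828, minus strand, 18 exon blocks) encodes RIG-I, which recognizes short double-stranded RNA with a 5′ triphosphate. At day 0 its levels were 6.18, 6.93, 5.94, 5.81 and 5.35 CPM in the 5 WT libraries. In the Abcb10-null libraries they were 72.8, 81.99, 78.2, 80.96 and 80.3 CPM. The groups were far apart, and the gene was 13-fold higher in Abcb10-null cells (log2 3.70, SE 0.0821, adjusted p = 1.3e-16).
At day 2 the WT libraries held 9.22, 10.8, 8.88, 11.9 and 7.25 CPM and the Abcb10-null libraries 26.9, 14.6, 38.6, 26.8 and 26.2 CPM. The ranges still did not meet, although Abcb10-null library 2 came close to the WT values, and the difference was 2.67-fold (log2 1.42, SE 0.231, adjusted p = 0.00258). At day 5 the levels were 15.3, 14.99, 15.4, 15.8 and 13.3 CPM (WT) and 35.5, 36.4, 38.7, 40.2 and 31.7 CPM (Abcb10-null), again without overlap. Ddx58 was the 1 gene of the 9 that was called higher in Abcb10-null cells at each of the 3 days (2.42-fold at day 5, log2 1.28, SE 0.117, adjusted p = 9.43e-06).

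Ifih1 (ENSMUSG00000026896, chromosome 2, 62595798 to 62646255, minus strand, 17 exon blocks) encodes MDA5, the sensor of long double-stranded RNA. It was the most counted of the sensors in WT cells, with 25.7, 25.6, 27.7, 31.4 and 28.3 CPM at day 0. The Abcb10-null libraries of day 0 held 89.8, 89.96, 84.8, 87.1 and 98.96 CPM, all above the WT libraries (3.23-fold, log2 1.69, SE 0.0738, adjusted p = 1.94e-12).
At day 2 the libraries held 23.3, 21.5, 19.3, 20.2 and 21.5 CPM (WT) and 33.5, 31.5, 37.5, 27.6 and 40.3 CPM (Abcb10-null), which still did not overlap (1.55-fold, log2 0.64, SE 0.138, adjusted p = 0.00639). The genotypes overlapped at day 5, with 26.9, 41.9, 21.2, 32.04 and 23.4 CPM (WT) and 24.1, 30.8, 29.9, 22.6 and 21.8 CPM (Abcb10-null). WT libraries 2 and 4 were the highest of the 10, and the day 5 difference of -0.18 on the log2 scale (95% interval -0.59 to 0.23) did not pass (adjusted p = 0.474).

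Dhx58 (ENSMUSG00000017830, chromosome 11, 100694884 to 100704271, minus strand, 13 exon blocks) encodes LGP2, a family member without signalling domains of its own that modulates MDA5 and RIG-I. The WT libraries of day 0 held 4.02, 4.75, 4.22, 4.43 and 4.61 CPM, from counts of 71, 65, 76, 61 and 74. The Abcb10-null libraries held 50.4, 56.7, 43.9, 48.9 and 50.3 CPM, 11.3-fold higher and without overlap (log2 3.50, SE 0.0973, adjusted p = 2.28e-15). The Abcb10-null values rested on 764 to 1131 counts a library.
At day 2 the WT libraries held 3.74, 3.604, 3.34, 4.27 and 4.26 CPM and the Abcb10-null libraries 3.87, 8.42, 9.17, 3.95 and 9.43 CPM. Abcb10-null libraries 1 and 4 lay inside the WT range and libraries 2, 3 and 5 lay above it. The difference of 0.81 (SE 0.291) was just called (adjusted p = 0.0472), and the call was lost on leaving out any 1 of 8 of the 10 libraries (all 5 of WT and Abcb10-null 2, 3 and 5, adjusted p from 0.0661 to 0.11, log2 from 0.69 to 0.85). Day 5 levels were 4.66, 3.88, 1.67, 2.82 and 2.58 CPM (WT) and 7.51, 4.36, 3.34, 4.46 and 4.63 CPM (Abcb10-null), which overlapped, and the difference did not pass (log2 0.62, 95% interval -0.04 to 1.29, adjusted p = 0.13). It passed when all 30 libraries shared 1 fit (adjusted p = 0.0425).
Dhx58 shares 4.31% of its exon bases with the antisense gene Dhx58os. That gene had no count in any library of days 0 and 2 and at most 7 in a library of day 5.

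The adaptor Mavs (ENSMUSG00000037523, chromosome 2, 131234063 to 131248025, plus strand, 9 exon blocks) sits on the mitochondrial outer membrane and relays the signal of the sensors. Its levels at day 0 were 29.1, 35.8, 36.1, 30.9 and 38.9 CPM (WT) and 25.1, 33.6, 27.9, 27.03 and 31.4 CPM (Abcb10-null). The ranges overlapped and the difference did not pass (log2 -0.24, SE 0.0961, adjusted p = 0.0586), but it lay near the threshold. It passed with DESeq2 (adjusted p = 0.0373), with DESeq2's size factors in edgeR (0.0444), and without WT library 1 (0.0193), WT library 4 (0.0325) or Abcb10-null library 2 (0.0295), with log2 values from -0.29 to -0.31 in the last 3.
At day 2 Mavs held 42.5, 32.5, 43.4, 42.97 and 49.1 CPM (WT) and 31.04, 28.7, 31.2, 33.03 and 40.4 CPM (Abcb10-null). The ranges overlapped. Mavs was called lower (log2 -0.40, SE 0.137, adjusted p = 0.0388), a call lost without the filter on low counts (0.138) and on leaving out any 1 of 8 libraries (WT 1, 3, 4 and 5 and Abcb10-null 1 to 4, adjusted p from 0.0567 to 0.104). By day 5 the libraries no longer overlapped, with 51.4, 67.1, 50.3, 50.5 and 58.6 CPM (WT) and 31.1, 35.2, 32.7, 26.9 and 22.9 CPM (Abcb10-null). Mavs was then 1.88-fold lower in Abcb10-null cells (log2 -0.91, SE 0.139, adjusted p = 0.000322), opposite in direction to Ddx58.

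Irf3 (ENSMUSG00000003184, chromosome 7, 44997648 to 45002848, plus strand, 7 exon blocks) encodes the factor that is present before infection and is activated by phosphorylation. At day 0 it ranged from 63.8 to 74.6 CPM (WT) and from 63.5 to 80.9 CPM (Abcb10-null). The genotypes overlapped at all 3 days, and none of the differences passed: log2 -0.04 before DMSO (95% interval -0.20 to 0.12, adjusted p = 0.696), 0.30 at day 2 (-0.02 to 0.61, 0.137) and 0.25 at day 5 (-0.02 to 0.52, 0.135). The day 2 difference passed when all 30 libraries shared 1 fit (log2 0.34, adjusted p = 0.0283). Irf3 shares 2.56% of its exon bases with Bcl2l12 on the opposite strand, whose mean was between 2.81 and 6.15 CPM in the 6 groups.

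Irf7 (ENSMUSG00000025498, chromosome 7, 141262706 to 141266481, minus strand) encodes the factor that carries the amplifying phase of the interferon response and is itself interferon-induced in most cells. In WT cells of day 0 it was the lowest of the 9 genes by CPM, at 2.78, 2.41, 2.55, 2.18 and 1.31 CPM from counts of 49, 33, 46, 30 and 21. The Abcb10-null libraries held 41.6, 62.3, 74.6, 59.7 and 71.8 CPM from counts of 786, 1243, 1341, 932 and 1401. This day 0 difference of 27.3-fold was the largest that any of the 9 genes had on any day (log2 4.77, SE 0.175, adjusted p = 1.33e-13).
By day 2 WT libraries had reached 2.95, 6.26, 4.47, 6.47 and 5.202 CPM and Abcb10-null libraries stood at 6.66, 7.73, 16.2, 10.6 and 8.55 CPM. All Abcb10-null libraries were still above the WT libraries, by 1.89-fold (log2 0.92, SE 0.283, adjusted p = 0.0259). That call was lost without WT library 1 (adjusted p = 0.0606), Abcb10-null library 3 (0.075) or Abcb10-null library 4 (0.0553), with log2 values of 0.78, 0.68 and 0.90. On day 5 they were 12.8, 8.596, 9.09, 12.9 and 9.59 CPM (WT) and 12.5, 11.7, 8.82, 9.34 and 7.097 CPM (Abcb10-null). The genotypes were interleaved and the difference did not pass (log2 -0.11, 95% interval -0.53 to 0.31, adjusted p = 0.69).
Irf7 shares 1.19% of its exon bases with Phrf1 on the opposite strand. The mean level of Phrf1 at day 0 was 50.7 CPM (WT) and 43.3 CPM (Abcb10-null).

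Irf9 (ENSMUSG00000002325, chromosome 14, 55603571 to 55610030, plus strand, 6 exon blocks) encodes the DNA-binding subunit of ISGF3. At day 0 it held 15.8, 13.1, 14.6, 14.2 and 11.9 CPM (WT) and 45.1, 52.5, 51.5, 47.7 and 46.5 CPM (Abcb10-null), 3.47-fold higher and without overlap (log2 1.8, SE 0.0865, adjusted p = 9e-12). At day 2 the values were 24.9, 28.1, 20.8, 19.04 and 15.9 CPM (WT) and 23.7, 19.3, 35.9, 26.7 and 26.5 CPM (Abcb10-null). These overlapped, with Abcb10-null library 3 alone above the WT range, and the difference did not pass (log2 0.23, 95% interval -0.20 to 0.65, adjusted p = 0.399). Day 5 means were 22.7 ± 3.28 (SD) CPM (WT) and 24.4 ± 4.51 CPM (Abcb10-null), again without a call (log2 0.10, 95% interval -0.24 to 0.43, adjusted p = 0.645). Irf9 shares 2.28% of its exon bases with Rnf31 on the same strand, whose mean at day 0 was 11.8 CPM (WT) and 13.01 CPM (Abcb10-null).

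Stat2 (ENSMUSG00000040033, chromosome 10, 128270559 to 128292849, plus strand, 19 exon blocks) encodes the ISGF3 subunit that carries its transactivation domain. At day 0 it held 5.78, 7.67, 5.71, 6.68 and 6.47 CPM (WT) and 11.3, 12.8, 10.7, 11.6 and 13.6 CPM (Abcb10-null). The libraries did not overlap, and the difference was the smallest of the 6 that were called (1.85-fold, log2 0.89, SE 0.123, adjusted p = 1.84e-05). At day 2 it held 22.3, 15.7, 13.3, 12.9 and 12.7 CPM (WT) and 8.84, 11.8, 14.7, 6.08 and 17.4 CPM (Abcb10-null). The Abcb10-null libraries spread from below to within the WT range, with the lowest values in libraries 4 and 1, the pair that was also lowest for Dhx58. Neither the day 2 difference (log2 -0.44, 95% interval -1.03 to 0.15, adjusted p = 0.235) nor that of day 5 (log2 -0.18, -0.58 to 0.21, 0.453) passed.

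Ifnar1 (ENSMUSG00000022967, chromosome 16, 91485238 to 91507441, plus strand, 12 exon blocks) encodes a chain of the type I interferon receptor. It ranged from 41.01 to 51.5 CPM (WT) and from 50.02 to 54.9 CPM (Abcb10-null) at day 0, from 46.3 to 61.5 and 53.8 to 65.7 CPM at day 2, and from 78.8 to 87.5 and 87.4 to 97.1 CPM at day 5. The ranges overlapped at each day. The genotype differences did not pass: log2 0.14 before DMSO (95% interval -0.01 to 0.30, adjusted p = 0.127), 0.11 at day 2 (-0.13 to 0.35, 0.476) and 0.14 at day 5 (-0.05 to 0.32, 0.222). These intervals allow a difference of at most 0.35 on the log2 scale in favor of Abcb10-null cells.

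**Figure D2:**
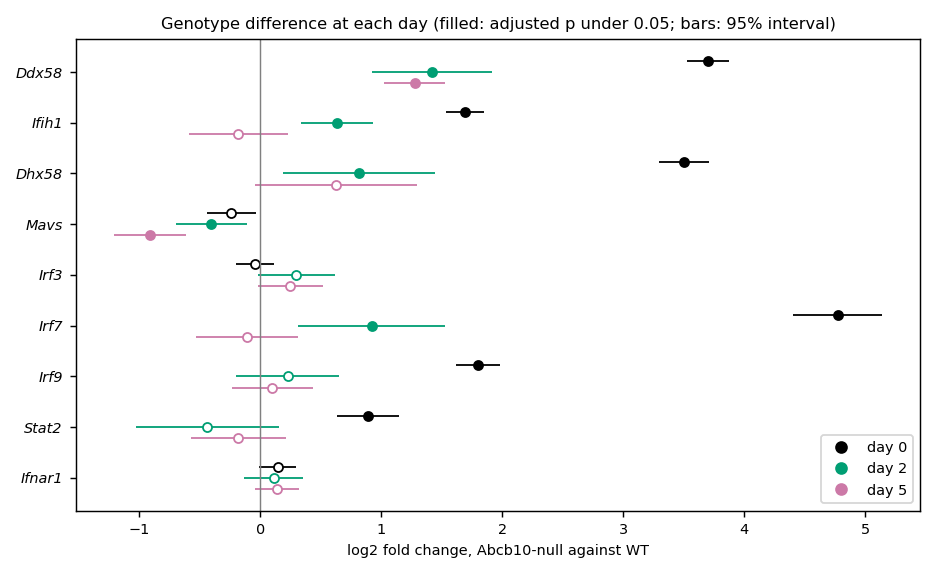
Difference between Abcb10-null and WT cells (log2 fold change) for each of the 9 genes at day 0 (black), day 2 (green) and day 5 (pink), with 95% intervals as bars and filled points where the adjusted p was under 0.05. The day 0 points of Irf7, Ddx58 and Dhx58 lie at 4.77, 3.70 and 3.50, the day 5 points of all genes but Ddx58 and Mavs have intervals that include 0, and Mavs moves from -0.24 to -0.91.

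Apart from the remarks on counts or CPM above, levels of different genes were compared after division by exon length (CPM per kb of merged exons). In WT cells of day 0 the order ran from Irf3 (20.6 ± 1.23 SD CPM per kb), Mavs (10.2 ± 1.21), Ifnar1 (7.87 ± 0.659), Ifih1 (3.401 ± 0.2903) and Irf9 (2.59 ± 0.276) to Dhx58 (1.35 ± 0.0887), Stat2 (1.09 ± 0.134), Ddx58 (0.857 ± 0.0826) and Irf7 (0.594 ± 0.1503). Neighbours in this order did not overlap between libraries, apart from Dhx58 with Stat2 and Stat2 with Ddx58. In Abcb10-null cells of day 0 Irf7 (16.4 ± 3.44) and Dhx58 (15.3 ± 1.402) came next after Irf3 (20.1 ± 2.01), and the libraries of Irf3 and Irf7, and of Irf7 and Dhx58, overlapped. Ddx58 (11.2 ± 0.5202) and Ifih1 (11.04 ± 0.658) followed and overlapped with each other, then Irf9, Ifnar1 and Mavs between 9.04 and 8.68, each overlapping with the next, and Stat2 was last (2.02 ± 0.198).
By day 5 Mavs, Ifnar1 and Irf3 held the first 3 places in WT cells (16.6, 14.1 and 13.2 CPM per kb, with Ifnar1 and Irf3 overlapping) and Irf3, Ifnar1 and Mavs in Abcb10-null cells (15.7, 15.6 and 8.89, with Irf3 and Ifnar1 overlapping). Dhx58 was last in both genotypes (0.954 and 1.49). The merged exons of Irf7 form 1 block that covers the whole gene, so intron bases of its shorter models count toward its length.

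Ratios within a library gave the balance of related genes. Irf7 stood at 0.0290 ± 0.00745 (SD, n = 5) of Irf3 per kb in WT cells of day 0 and at 0.819 ± 0.165 in Abcb10-null cells, where 1 library reached 1.03. The same ratio at day 5 was 0.215 ± 0.0320 in WT and 0.167 ± 0.0347 in Abcb10-null cells, with overlapping ranges. For RIG-I and MDA5, the ratio of Ddx58 to Ifih1 at day 0 was 0.254 ± 0.0418 (WT) and 1.02 ± 0.0700 (Abcb10-null). It was higher in all Abcb10-null libraries (1.37 to 2.06) than in any WT library (0.414 to 0.840) at day 5 too. At day 2 the ranges of this ratio overlapped (0.391 to 0.682 in WT and 0.538 to 1.19 in Abcb10-null libraries). Within ISGF3, Stat2 at day 0 was 0.428 ± 0.0855 of Irf9 (WT) and 0.225 ± 0.0274 (Abcb10-null), without overlap, and the ranges overlapped at day 5 (0.473 to 0.847 and 0.420 to 0.687).

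Over differentiation the direction of change was counted in each genotype. In WT cells between days 0 and 2, 5 of the 9 genes rose and 2 fell, where 31.5% of all genes tested rose and 30.7% fell. Between days 0 and 5, 6 rose and 1 fell, where 36.5% of all genes rose and 34.7% fell. In Abcb10-null cells 1 rose and 5 fell between days 0 and 2, where 23.1% of all genes rose and 20.1% fell, and 1 rose and 6 fell between days 0 and 5, where 33.9% rose and 33.3% fell. Without the filter on low counts, the WT shares of all genes were 15.6% and 13.9% to day 2 and 20% and 11.8% to day 5. Those of Abcb10-null cells were 9.47% and 8.5% to day 2 and 15.2% and 10.7% to day 5. The median log2 change of the 9 genes to day 5 was 0.70 in WT and -0.98 in Abcb10-null cells, against medians of 0.0229 and 0.0135 over all genes.

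The values of single genes are given as log2 fold changes with the adjusted p (edgeR) in parentheses. In WT cells Irf7 had the largest rise of the 9 to day 5, by log2 1.17 (SE 0.264, adjusted p = 0.0018) to day 2 and 2.23 (SE 0.226, 1.22e-06) to day 5. Ddx58 rose by 0.67 (0.00262) and 1.31 (1.3e-06), Stat2 by 1.25 (4.27e-05) and 1.28 (2.87e-05), and Irf9 by 0.64 (0.00254) and 0.70 (0.000341). The other sensors did not rise with Ddx58. Ifih1 fell by 0.39 to day 2 (0.00305) and stood at 0.07 at day 5 (0.725), and Dhx58 was at -0.20 (0.314) and -0.49 (0.0998), neither of which passed. Without WT day 5 library 1 the day 5 value of Dhx58 was -0.69 and passed (adjusted p = 0.0278). Mavs rose by 0.70 to day 5 (0.000133), and its rise of 0.30 to day 2 (0.0431) was lost without the filter on low counts (0.0843) and without any 1 of 6 libraries (day 0 libraries 1 to 4 and day 2 libraries 4 and 5, adjusted p from 0.0662 to 0.126).
Irf3 fell by 0.57 to day 2 (0.000898) and by 0.64 to day 5 (0.000304). Ifnar1 rose by 0.84 to day 5 (1.55e-06). Its day 2 value of 0.21 (0.09) passed only with all 30 libraries in 1 fit (log2 0.20, 0.0448) or without WT day 2 library 1 (log2 0.30, 0.0168).

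In Abcb10-null cells the genes that had been far above WT at day 0 fell. Dhx58 fell by 2.81 (SE 0.244, adjusted p = 2.19e-06) to day 2 and by 3.35 (SE 0.169, 1.06e-10) to day 5, and Irf7 by 2.61 (2.59e-06) and 2.63 (1.72e-09). Ddx58 fell by 1.54 (2.72e-05) and 1.10 (6.79e-09), Ifih1 by 1.37 (1.03e-06) and 1.79 (6.62e-10), and Irf9 by 0.86 (0.000326) and 0.98 (1.91e-06). Irf7 stood at about the same level on days 2 and 5, as its Abcb10-null mean went from 62.01 ± 13.01 CPM to 9.94 ± 3.78 and then 9.89 ± 2.200 CPM (SD, n = 5). Stat2 did not pass (0.0047, adjusted p = 0.99, and 0.23, 0.127), and its day 5 value passed without Abcb10-null day 5 library 5 (log2 0.28, 0.0476).
Mavs stood at 0.21 (0.18) and 0.05 (0.754) and did not pass at either day. Irf3 was at -0.17 at day 2 (0.289) and had fallen by 0.34 at day 5 (0.00268). Ifnar1 rose by 0.84 to day 5 (4.72e-08), beside 0.84 in WT cells. Its rise of 0.24 to day 2 (0.0411) was lost with DESeq2's size factors (0.0503), without the filter (0.266) and on leaving out any 1 of 8 of the 10 libraries, all but Abcb10-null day 2 libraries 2 and 5 (adjusted p from 0.0537 to 0.104).

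**Figure D3:**
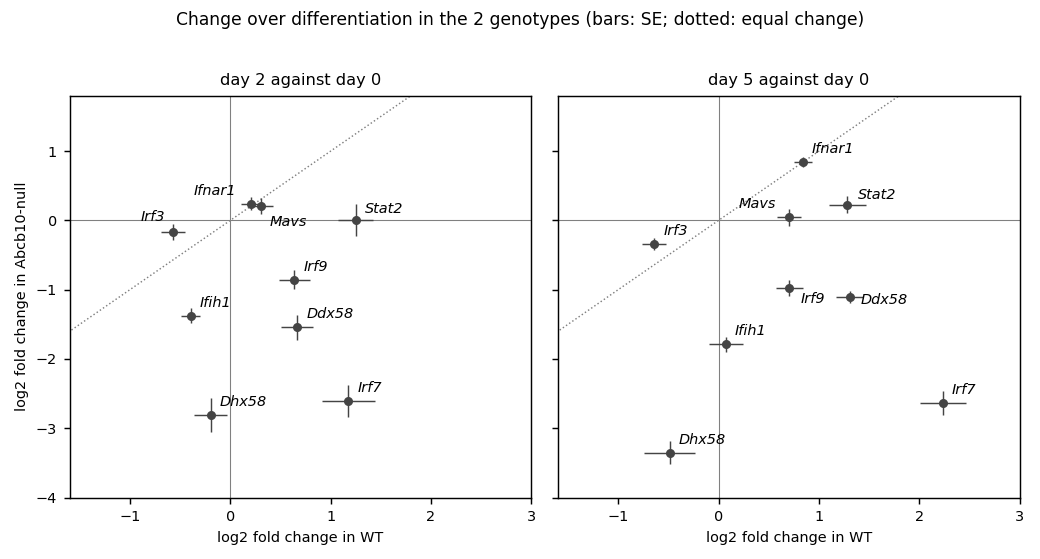
Log2 fold change against day 0 in WT cells (x axis) and in Abcb10-null cells (y axis) for the 9 genes, at day 2 (left) and day 5 (right), with SE as bars and equal change as a dotted line. Ifnar1 lies close to the line at both days (0.84 in each genotype at day 5), whereas Irf7 rose by 2.23 in WT and lies at -2.63 in Abcb10-null cells at day 5.

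The difference between these changes was tested as the interaction of genotype and day. From day 0 to 2, 6 of the 9 genes had a lower change in Abcb10-null than in WT cells and none a higher one, where 10.8% of all genes tested had a lower and 12% a higher change. From day 0 to 5 there were 7 lower and none higher, where the shares of all genes were 14.7% and 16.8%. The day 2 shares moved to 7.58% higher without Abcb10-null day 2 library 4 and to 16.8% lower without Abcb10-null day 2 library 2. Without the filter on low counts the shares were 4.46% higher and 5.13% lower to day 2, and 4.26% and 3.54% to day 5. At an unadjusted p under 0.05, 1 gene (Irf3) had a higher change in each interaction, and DESeq2 also called 6 and 7 genes in all. The interaction to day 5 was -4.86 for Irf7 (SE 0.279, adjusted p = 4.42e-11), -2.86 for Dhx58 (1.57e-07), -2.40 for Ddx58 (1.56e-11), -1.85 for Ifih1 (5.84e-07) and -1.68 for Irf9 (3.02e-07). Stat2 (-1.05, 0.000693) and Mavs (-0.65, 0.00686) also passed. Ifnar1 did not pass, at 0.01 to day 2 and 0.01 to day 5 (95% interval -0.21 to 0.23), nor did Irf3, at 0.38 (0.113) and 0.31 (0.122). The Irf3 value to day 2 passed without Abcb10-null day 2 library 2 (log2 0.44, adjusted p = 0.0437).

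The rest of the pathway was described through 87 other genes, of which 55 could be tested at day 0 and 54 at days 2 and 5. In Abcb10-null cells 36 of them were higher and 1 lower than in WT cells at day 0, 21 higher and 8 lower at day 2, and 15 higher and 12 lower at day 5. Without the library of Abcb10-null day 5 that stood apart, the day 5 counts were 12 higher and 11 lower. Of all genes tested, 19.7% were higher and 16.2% lower at day 0, 14.9% and 16.9% at day 2, and 19.8% and 17.8% at day 5. The lists were chosen with earlier results known, so nothing is read from these counts or those of the lists and markers below. Among 17 interferon-stimulated target genes tested at day 0, 16 were higher and none lower at either an adjusted or an unadjusted p under 0.05, with a median log2 difference of 2.70. At day 2, 13 of 16 were higher and 1 lower (median 0.94), and at day 5, 3 were higher and 1 lower (median 0.069), or 3 and 0 without the library that stood apart (median 0.013).
The target Oasl2, an OAS-like protein of the antiviral response, was at 0.259 ± 0.222 CPM (WT) and 9.46 ± 1.72 CPM (Abcb10-null) at day 0 (log2 5.06, adjusted p = 5.43e-10), and at day 5 at 2.05 ± 0.891 and 2.15 ± 1.099 CPM (log2 0.04, adjusted p = 0.956, or -0.30 and 0.608 without the library that stood apart). The target Rtp4 had no count in the 5 WT libraries of day 0 and 30 to 60 counts in the Abcb10-null libraries, at least 12.4-fold higher against a floor of 3 counts a library.

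**Figure D4:**
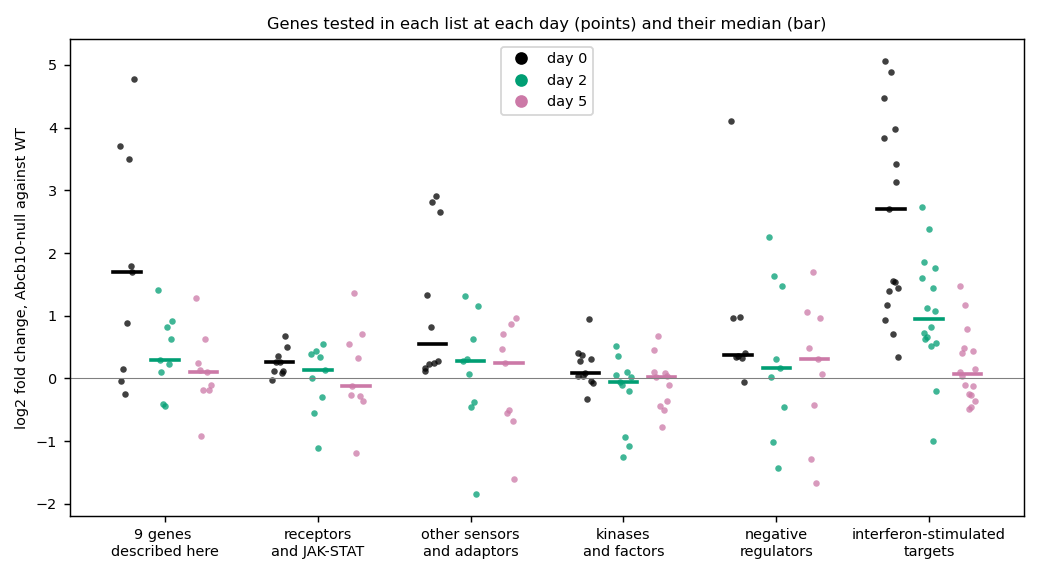
Difference between Abcb10-null and WT cells (log2 fold change) for each gene tested in 6 lists, at day 0 (black), day 2 (green) and day 5 (pink), with the median as a bar. Rtp4, with no count in WT cells at day 0, is in the median but is not drawn at that day. The median of the interferon-stimulated targets goes from 2.70 through 0.94 to 0.069 (0.013 without Abcb10-null day 5 library 4). The medians of the lists other than these targets and the 9 genes lie between -0.12 and 0.55 at the 3 days. Without that library the day 5 median of the kinases and factors turns from 0.022 to -0.071. The day 5 median of the receptor and JAK-STAT genes is then -0.136 in place of -0.119.

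The interferon genes themselves, 21 ligands, were at or near 0. No ligand passed the filter in any comparison, and at day 0 the largest count of any 1 ligand in a library was 2 (WT) and 1 (Abcb10-null). By day 5 the largest was 4 in WT cells and 9 in Abcb10-null cells, the latter in the library that stood apart. The other 4 Abcb10-null libraries of day 5 held at most 2 counts of any ligand. With a floor of 3 counts a library, ligand RNA was not detectable at this depth at day 0, which does not show its absence.

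Beside the count of interferon-stimulated targets, none of the lists of receptors, sensors and negative regulators had a gene lower at day 0, and unadjusted p-values under 0.05 gave the same counts. Among 9 other receptor and JAK-STAT genes tested, 5 were higher at day 0, 1 higher and 2 lower at day 2, and 3 higher and 2 lower at day 5 (2 higher and 2 lower without the library that stood apart). Il10rb, a chain shared by the interferon lambda and interleukin-10 receptors, was higher at day 5 (12.4 ± 4.77 and 31.96 ± 2.51 CPM, log2 1.36, adjusted p = 0.000318).

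Of the other sensors and adaptors, 6 of 10 were higher at day 0, 2 of 9 higher and 1 lower at day 2, and 4 higher and 4 lower at day 5 (3 and 4 without the library that stood apart). Oas2 and Oas3, which sense double-stranded RNA and activate RNase L, differed at day 0 by 2.91 and 2.81 (adjusted p = 3.02e-14 and 2.15e-13), and at day 5 Oas2 was higher (0.97, 0.0473, lost at 0.96 and 0.0714 without the library that stood apart) and Oas3 lower (-0.68, 0.0143). Of 11 kinases and factors, 4 were higher and 1 lower at day 0, 1 higher and 3 lower at day 2, and 2 higher and 2 lower at day 5. Irf2, a repressor and activator of ISRE genes, and Rela, the p65 subunit of NF-kB, were lower at day 2 (-1.25, 0.00538 and -1.07, 0.00991). Of the negative regulators, 5 of 8 were higher at day 0, 4 of 9 higher and 1 lower at day 2, and 3 higher and 3 lower at day 5 (2 and 3 without the library that stood apart). Usp18, which strips ISG15 from proteins and blocks the type I interferon receptor, was at 4.07 ± 0.386 CPM (WT) and 70.4 ± 8.78 CPM (Abcb10-null) at day 0 (log2 4.11, 9.53e-16). It was also higher at day 2 (2.26, 0.0032) and day 5 (1.07, 0.0249, or 1.11 and 0.034 without the library that stood apart). The ubiquitin ligase Rnf125 was higher at all 3 days too (0.98, 1.63 and 1.69, adjusted p = 2.34e-07, 0.000874 and 1.53e-05).

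The genes most like each of the 9, by Pearson r of log2 CPM over the 30 libraries among 12143 other genes, were Rsad2 (0.957) and Slfn5 (0.954) for Ddx58, H2-T24 (0.925) and Gbp3 (0.923) for Ifih1, and Oas1a (0.945) and Oas2 (0.936) for Dhx58. For Irf7 they were Xaf1 (0.952) and Rsad2 (0.927), for Irf9 Parp9 (0.937) and Samd9l (0.920), and for Stat2 Tbc1d8 (0.808) and Helz2 (0.806). Mavs was most like Sh3yl1 (0.902) and Snrnp25 (0.859), Irf3 like Bloc1s2 (0.924) and Rer1 (0.922), and Ifnar1 like Mbnl2 (0.953) and Cmas (0.952). The 30 points share 6 group means, so a high r says that the group means moved alike.
Among the 15 pairs of the 6 genes called higher at day 0, the median r over the libraries was 0.751, and 0.253 once the group means were removed (range -0.056 to 0.649). Over all 36 pairs these medians were 0.229 and 0.103. The 6 genes were picked by a difference between libraries that also enter r, so their high r over the libraries follows in part from that choice.

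Markers of other cell types were checked in the same libraries. Of 7 macrophage and monocyte markers, Adgre1 and Itgam were at or under the floor in all libraries of day 0. The summed level of the 7 at day 0 was 7.96 to 9.71 CPM (WT) and 11.4 to 16.9 CPM (Abcb10-null), and Csf1r (0.636 ± 0.338 and 1.92 ± 0.695 CPM) and Cd14 (0.631 ± 0.234 and 1.37 ± 0.428 CPM) were among the 3 called higher. At day 5 the sum was 2.03 to 4.08 CPM (WT) and 2.55 to 11.3 CPM (Abcb10-null), in the latter with and without the library that stood apart. The lysozyme gene Lyz2, named here after its values were seen, was called higher at day 0 (0.354 ± 0.131 and 1.06 ± 0.293 CPM, log2 1.52, adjusted p = 0.00326) and at day 5 (0.297 ± 0.247 and 1.37 ± 0.389 CPM, log2 2.18, 0.0155). Of 5 plasmacytoid dendritic cell markers, Siglech, Ccr9, Klk1 and Irf8 were at or under the floor in all libraries of day 0, and the list's sum (22.1 to 28.5 CPM in WT libraries and 24.9 to 32.5 CPM in Abcb10-null libraries) was almost all Tcf4, which was called higher in Abcb10-null cells at day 0 (24.2 ± 2.46 and 29.3 ± 3.01 CPM, log2 0.27, adjusted p = 0.0265). The 5 lymphocyte markers summed to at most 0.292 CPM at day 0 and to at most 1.88 CPM (WT) and 6.75 CPM (Abcb10-null) at day 5. The latter was the library that stood apart (65 counts), and the other 4 of its group reached 1.39 CPM.
The erythroid markers, which define this line's lineage, moved with the genotype too. At day 0, 1 of 8 was higher and 3 were lower, where 19.7% of all genes were higher and 16.2% lower. All 9 were lower at day 5 (8 without the library that stood apart), where 17.8% of all genes were lower. Among the 9 were the transferrin receptor Tfrc (-3.09, adjusted p = 2.68e-05) and the anion exchanger Slc4a1 (-3.13, 9.3e-05). The erythroid list includes globin genes, and globin RNA was depleted before sequencing, so their counts are what was left after it. The part of the markers of any list in the levels of the 9 genes was not tested.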

How the data were processed

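Total RNA of 30 MEL cell libraries (WT and Abcb10-null, 6 groups of 5) was depleted of ribosomal and globin RNA, made into stranded libraries and sequenced as read pairs. The authors aligned the reads to GRCm38 with STAR 2.6.1b and counted them on Ensembl release 94 genes with featureCounts 1.6.3. The strand setting of the counting is not given in the sources used here, so reads in overlapping genes could be split or dropped. The deposited values are raw counts per gene, not normalized. Of 54532 genes 9219 had no count, and 37 gene identifiers (0.0116% of the counts) were not in the GENCODE M21 annotation used for symbols, coordinates and merged exon lengths.

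Groups and replicate numbers came from the labels. Replicates differed by more than counting error (chi-square over its degrees of freedom at least 6.48). Whether they were separate cultures is stated only as biological replicates, so p-values rest on the spread between these libraries. Genes were tested in R 4.3.3 with edgeR 4.0.16 (TMM, filterByExpr, glmQLFit, glmQLFTest, Benjamini-Hochberg over all genes tested, threshold 0.05), each comparison on its own libraries and the interactions on 20, after tests on simulated data. Intervals are 95% from the quasi-likelihood SE and degrees of freedom. CPM is the count over the TMM-scaled library size from all 30 libraries. Correlations used log2 CPM with a prior count of 2. Tables were made with Python 3.11.15 and pandas 2.3.3.

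The 9 genes and all lists were chosen with earlier results of these data known. Named beside the 9 and Abcb10 were at most 2 genes a list, those with the largest called genotype difference at any day and a mean of at least 1 CPM, and for each of the 9 the 2 genes most correlated with it. A gene that this rule names is not reported here. Oas1a, Rsad2, Xaf1 and Parp9 are named as correlates. Isg15, Lyz2 and the genes sharing exons with the 9 were named after their values were seen. Promoters came from RefSeq tables on GRCm38.p6.

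Alternatives were DESeq2 1.42.0, DESeq2's size factors in edgeR, no filter on low counts, all 30 libraries in 1 fit, the replicate number as a block, and each library left out in turn. Leaving out Abcb10-null day 5 library 4 for the lists was added after the data were seen. The study's measurements other than RNA-seq were not used here.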

Additional observations from a re-analysis of the deposited data

Results flagged for a closer look

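No library of any of the 9 genes lay beyond the 95% critical value of Dixon's test against the other 4 of its group, in 54 groups of 5 values tested. Set out here are the genes whose change over differentiation differed between the genotypes by the interaction test (edgeR, adjusted p under 0.05), each lower in Abcb10-null than in WT cells. From day 0 to 2 the log2 differences in change were -3.81 for Irf7 (adjusted p = 6.57e-07), -2.64 for Dhx58 (4.68e-06), -2.23 for Ddx58 (4.27e-06), -1.52 for Irf9 (7.47e-05), -1.27 for Stat2 (0.00554) and -1.004 for Ifih1 (8.71e-05). From day 0 to 5 they were -4.86 for Irf7 (4.42e-11), -2.86 for Dhx58 (1.57e-07), -2.40 for Ddx58 (1.56e-11), -1.85 for Ifih1 (5.84e-07), -1.68 for Irf9 (3.02e-07), -1.05 for Stat2 (0.000693) and -0.65 for Mavs (0.00686). Both sets share the day 0 libraries. By gene, Irf7, Ddx58 and Irf9 rose in WT and fell in Abcb10-null cells, Dhx58 fell in Abcb10-null cells without a call in WT cells, Ifih1 fell in Abcb10-null cells by more than in WT cells at day 2, and Stat2 and Mavs rose in WT cells by day 5 and did not pass in Abcb10-null cells.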

How the results depend on the processing

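Each of the 81 log2 fold changes of the 9 genes was recomputed under 5 other settings and with each library left out. The same direction and side of the threshold held for 77 with DESeq2, 76 each with DESeq2's size factors, all 30 libraries in 1 fit, no filter on low counts and a replicate block, and 919 of 990 with a library left out. No called difference changed direction. Calls that were lost or gained are given beside each gene above, apart from those under the block. The cause of these changes was not tested. The number of the 9 genes called was within 1.5 times the main count except at day 2 between the genotypes, where it was 5 and went from 2 to 4 with a library left out. The sign of 6 uncalled values near 0 changed. The Stat2 change from day 0 to 2 in Abcb10-null cells was -0.0061 with DESeq2, -0.0057 with its size factors, -0.0173 without the filter, -0.0255 in the fit of all 30 libraries and -0.0741 under the block, and from -0.18 to 0.18 with a library left out. The Mavs change to day 5 in Abcb10-null cells was -0.0414 without the filter and from -0.0260 to 0.109 with a library left out. The Ifnar1 interaction to day 2 was -0.0021 with DESeq2, -0.0022 with its size factors and from -0.0706 to 0.0496 with a library left out. To day 5 it was -0.0143 and -0.0134 with these, -0.0054 with all 30 libraries and from -0.0306 to 0.0477. Irf9 between the genotypes at day 5 went from -0.0109 to 0.170 and Ifih1 from day 0 to 5 in WT cells from -0.0975 to 0.167 with a library left out.

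With the replicate number as a block (replicate block), Mavs between the genotypes at day 0 was called (adjusted p = 0.0307), and 3 calls were lost: Dhx58 between the genotypes at day 2 (log2 0.72, 0.0894), Mavs from day 0 to 2 in WT cells (0.0561) and Ifnar1 from day 0 to 2 in Abcb10-null cells (0.101). Same-numbered libraries did not deviate together: the r of 75 pairs had a median of -0.017 (lowest -0.260, highest 0.423) and was over 0.1 in 8, so the number was not taken as a pairing. Depth limits Irf7 and Dhx58 most, with as few as 18 counts in a library, and the ligands were below detection at day 0.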
